A study of Caenorhabditis elegans with 6 samples.

Results

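The C-type lectin genes of C. elegans were examined in RNA-seq libraries of whole worms grown at 15°C or at 25°C. Members were all genes of the deposited table whose name is clec- followed by a number, which gave 204 of its 16391 genes. All libraries came from N2, the wild-type laboratory strain, at the L4 larval stage, fed OP50, an E. coli strain with little pathogenicity. Each growth temperature, 15°C or 25°C, was represented by 3 libraries, and neither group carried a mutation or had another treatment. In the study's methods, the parents had been moved from 20°C and the progeny hatched and grew to middle-to-late L4 at either temperature, while the sample records start from synchronized L1 larvae. The comparison asks which genes depend on cultivation temperature. No source says whether the 3 libraries of a temperature came from separate cultures, so p-values measure only the spread between these libraries, which may be technical.

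C-type lectins are proteins with a C-type lectin-like domain, a fold that in many animals binds sugars with the help of calcium. C. elegans has a very large family of them, most of which carry a signal for secretion, and many change in expression when worms meet bacterial pathogens, each pathogen affecting its own set. Several are made in the intestine, where they meet ingested bacteria, but for most members neither the ligand nor the function is known. Some combine the lectin domain with a CUB domain or a von Willebrand factor type A domain, both found in extracellular proteins.

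Levels are given in FPKM, the fragments assigned to a gene, scaled by its transcript length and by the mapped fragments of the library, so they can be compared between genes. Sequencing depth is unknown, and the FPKM of a library summed to between 2663992 and 3313082. The temperatures were compared with limma on the log2(FPKM + 0.5) scale over the 12996 genes whose mean reached 1 FPKM, and log2 fold changes on this scale, given with their standard error (SE), understate the change of genes with low values. Genes are called higher or lower at 25°C where the log2 fold change was beyond 1 and the adjusted p was under 0.01. The filter left 117 C-type lectin genes to test. The other 87 were all above 0 in at least 1 library, but their means were below 1 FPKM, with a median of 0.214 FPKM.

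At 25°C, 27 C-type lectin genes were called lower and 12 higher. The 27 were 23.1% of the tested members, where 5.59% of all tested genes were called lower, and the 12 were 10.3%, where 6.96% of all tested genes were called higher. Over the 117, log2 fold changes had a median of -0.27, against -0.032 for all tested genes. In each of the 39 called members the 3 libraries of one temperature lay apart from those of the other. Such separation was seen in 82 of the 117, or 70.1%, against 54.7% of all tested genes. Of the 117, 55 had the libraries at 25°C below, where 28.7% of all tested genes did. Another 27 of the 117, or 23.1%, had them above, near the 25.9% of all tested genes. An exact two-sided permutation test gave p = 0.10 for each called member, the smallest value that 3 libraries against 3 allow. Complete separation always gives this value, so the test adds nothing to it. The number called lower changed when single libraries were removed. It was 13, 14 and 14 when 15°C replicate 1, 2 or 3 was left out. It was 15, 28 and 17 when 25°C replicate 1, 2 or 3 was. In these smaller fits the share of members lower was between 11.3% and 23.9%, and the share of all tested genes lower was between 2.46% and 6.36%. With the libraries brought to equal sums the split was 22 lower and 17 higher, where 3.25% of all tested genes were lower and 9.33% higher, and the median over all tested genes moved to 0.15. Relative to that median, the members' median was at -0.25, against -0.24 in the values as deposited. This gap was -0.083 among genes with a mean of 5 FPKM or more and -0.11 without 15°C replicate 2.

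**Figure D1:**
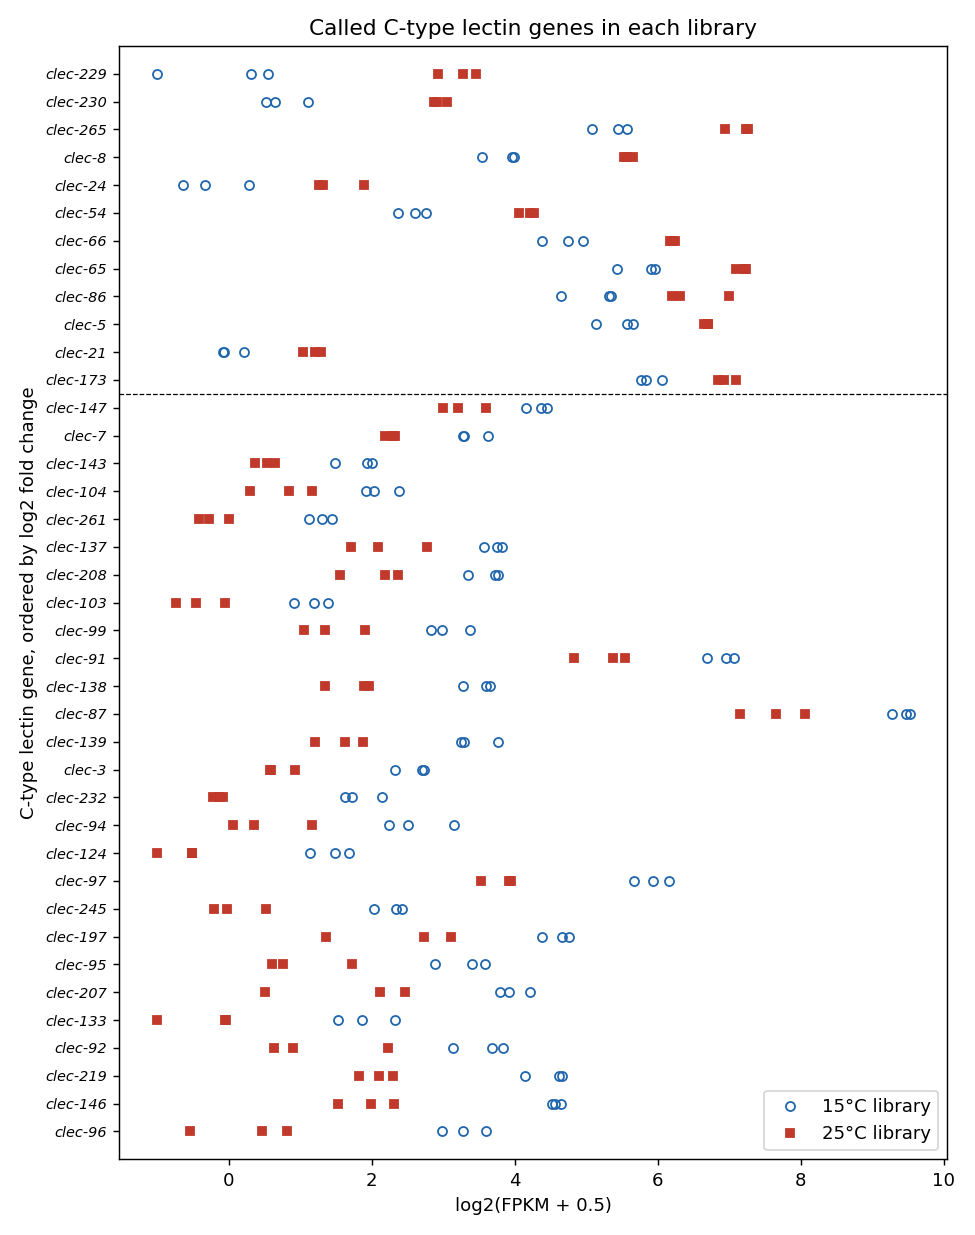
Values of the 39 called C-type lectin genes in the 6 libraries. The horizontal axis is log2(FPKM + 0.5), open circles are the libraries at 15°C and squares those at 25°C, and genes are ordered by log2 fold change. The dashed line separates the 12 genes higher at 25°C (above) from the 27 lower (below), and in no gene do the 3 circles and 3 squares overlap.

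Most of the abundant members were not called. The 6 with the highest means made up 52.7% of the FPKM of the whole family, summed over the libraries. clec-63, the most abundant, had 559, 856 and 793 FPKM in the libraries at 15°C and 873, 926 and 891 FPKM at 25°C. Its libraries at 25°C were just above those at 15°C, with a log2 fold change of 0.31 (SE 0.16, adjusted p = 0.17). clec-50 followed with 464, 650 and 589 FPKM at 15°C and 641, 644 and 628 FPKM at 25°C, within the range at 15°C. clec-47 had 535, 629 and 437 FPKM at 15°C and 486, 463 and 466 FPKM at 25°C, again overlapping, and its log2 fold change of -0.16 was above 0 (0.023) with rescaling to TPM or equal sums. clec-150 had 319, 364 and 323 FPKM at 15°C and 304, 300 and 301 FPKM at 25°C, for a log2 fold change of -0.15 (adjusted p = 0.25), which was slightly above 0 (0.036) with rescaling to TPM or equal sums. clec-1 had 312, 373 and 345 FPKM at 15°C and 188, 285 and 274 FPKM at 25°C, for a log2 fold change of -0.48 (adjusted p = 0.064), with the libraries apart. Only clec-87, the fourth of the 6, was called. It was also the only one called of the 10 members with a mean of at least 100 FPKM.

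clec-87 had the highest level of the members that fell. It measured 621, 712 and 737 FPKM at 15°C and 141.9, 267 and 202 FPKM at 25°C, so that every library at 25°C lay below every library at 15°C. On the log2 scale its fold change was -1.80 (SE 0.22, adjusted p = 0.0013), and it stayed called without any single library. clec-91, which like clec-87 lies on chromosome I, had 103, 124 and 134 FPKM at 15°C and 28.0, 46.2 and 41.1 FPKM at 25°C, for a log2 fold change of -1.65 (SE 0.20, adjusted p = 0.0013). Together the 27 lower members summed to between 1023 and 1154 FPKM at 15°C and between 234 and 399 FPKM at 25°C. The 12 higher members summed to between 247 and 301 FPKM at 15°C and between 738 and 804 FPKM at 25°C. The sum over all 204 members overlapped, with 5193, 6325 and 5717 FPKM at 15°C and 5505, 5690 and 5523 FPKM at 25°C. In whole worms, fewer cells that express a gene and less RNA per cell cannot be told apart.

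**Figure D2:**
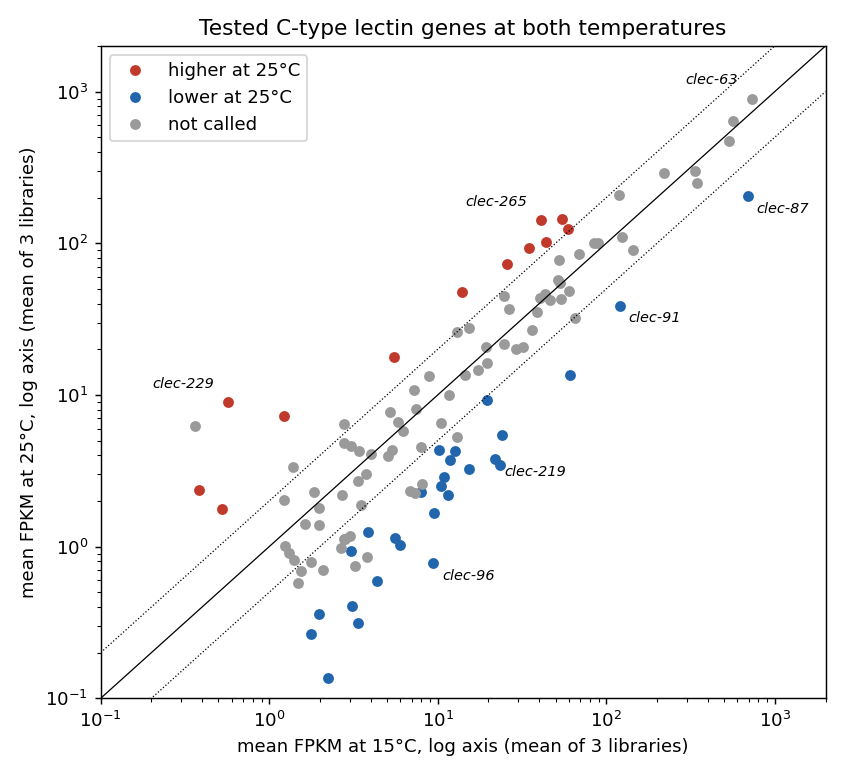
Mean FPKM of the 117 tested C-type lectin genes at 15°C (horizontal) and 25°C (vertical), both on log axes. Red points are the 12 genes called higher and blue points the 27 called lower. The solid line marks equal means and the dotted lines 2-fold differences of the means. The blue genes had a median of 10.1 FPKM at 15°C and 2.29 FPKM at 25°C. For the genes not called these medians were 8.04 and 7.14 FPKM. clec-87 and clec-91 are the blue points at the highest levels.

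Among the members that rose, clec-229 and clec-230 had the largest log2 fold changes on the log2(FPKM + 0.5) scale, from low levels at 15°C. By the ratio of mean FPKM, clec-229 (15.6) was followed by clec-24 (6.17) and clec-230 (5.91). clec-229 had 0.748, 0.968 and 0 FPKM at 15°C against 10.5, 7.09 and 9.23 FPKM at 25°C, for a log2 fold change of 3.26 (SE 0.42, adjusted p = 0.0016). clec-230 had 1.66, 1.07 and 0.942 FPKM at 15°C against 7.82, 6.84 and 7.05 FPKM at 25°C, for a log2 fold change of 2.19 (SE 0.22, adjusted p = 0.00060). Both lie on chromosome V on the minus strand of WBcel235, clec-229 from 15340006 to 15341504 and clec-230 from 15347847 to 15349144. In both, every library at 25°C lay above every library at 15°C. The higher members at substantial levels were clec-265, clec-65, clec-173, clec-5, clec-86, clec-66 and clec-8. clec-265, on chromosome X, had 33.3, 47.1 and 43.1 FPKM at 15°C and 122, 154 and 150 FPKM at 25°C, for a log2 fold change of 1.78 (SE 0.16, adjusted p = 0.00046). clec-8, whose protein combines a lectin and a CUB domain, had 11.2, 15.1 and 15.4 FPKM at 15°C and 49.7, 45.9 and 46.9 FPKM at 25°C, for a log2 fold change of 1.75 (SE 0.15, adjusted p = 0.00040). At 25°C the 3 libraries of clec-8 were close to each other and more than 2-fold above each library at 15°C.

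clec-65 and clec-66 are neighbours on chromosome II and encode proteins annotated with von Willebrand factor type A and lectin domains. clec-65 had 42.7, 59.6 and 61.9 FPKM at 15°C and 151, 136 and 149 FPKM at 25°C, for a log2 fold change of 1.42 (SE 0.16, adjusted p = 0.00099). clec-66 had 20.4, 30.4 and 26.3 FPKM at 15°C and 72.0, 75.6 and 73.1 FPKM at 25°C, for a log2 fold change of 1.52 (SE 0.16, adjusted p = 0.00076). Both rose by a similar factor, and 15°C replicate 1 was the lowest library in each. clec-54, with a CUB domain, went from 5.59, 4.65 and 6.30 FPKM to 18.9, 16.3 and 18.0 FPKM, a log2 fold change of 1.61. clec-24 went from 0.293, 0.717 and 0.141 FPKM to 2.01, 1.89 and 3.21 FPKM, a log2 fold change of 1.72 (SE 0.33, adjusted p = 0.0073). clec-173 (log2 fold change 1.07), clec-5 (1.23) and clec-21 (1.15) complete the group, the last with the lectin and CUB domains and a mean of only 1.77 FPKM at 25°C. Leaving out any single library kept 9 of the 12 called, all but clec-21, clec-24 and clec-86.

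Among the members that fell, clec-96 had the largest log2 fold change on the log2(FPKM + 0.5) scale, while by the ratio of mean FPKM clec-124 (16.6) was ahead of clec-96 (12.1). The ratio of clec-124 rests on a mean of only 0.135 FPKM at 25°C, near the floor. clec-96 had 9.22, 11.6 and 7.39 FPKM at 15°C and 1.26, 0.877 and 0.186 FPKM at 25°C, for a log2 fold change of -3.04 (SE 0.37, adjusted p = 0.0013). clec-146 had 23.2, 22.5 and 24.7 FPKM at 15°C and 2.39, 4.48 and 3.48 FPKM at 25°C, for a log2 fold change of -2.63 (SE 0.21, adjusted p = 0.00031). clec-219 had 24.8, 24.1 and 17.2 FPKM at 15°C and 4.41, 3.80 and 3.05 FPKM at 25°C, for a log2 fold change of -2.40 (SE 0.20, adjusted p = 0.00036). The level at 15°C of clec-146 and clec-219 was several times that at 25°C in every pair of libraries. clec-146 and clec-219 were also the only members that passed treat, limma's test of changes beyond 2-fold. It called 0 members higher and these 2 lower, against 1.05% of all tested genes higher and 0.2% lower. At p under 0.05 before adjustment, the ordinary limma test gave 26 of the 117 tested members higher, near the 22.9% of all tested genes. It gave 50 of the 117 lower, where 26.9% of all tested genes were lower. clec-97, on chromosome I, had 60.7, 70.8 and 50.2 FPKM at 15°C and 11.02, 14.9 and 14.7 FPKM at 25°C, for a log2 fold change of -2.12 (SE 0.18, adjusted p = 0.00035).

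Other members that fell had uneven values at 25°C. clec-92 had 13.8, 12.3 and 8.30 FPKM at 15°C and 1.37, 4.18 and 1.05 FPKM at 25°C, for a log2 fold change of -2.30 (SE 0.42, adjusted p = 0.0062). clec-207 had 14.6, 18.0 and 13.3 FPKM at 15°C and 3.83, 5.06 and 0.929 FPKM at 25°C, for a log2 fold change of -2.27 (SE 0.48, adjusted p = 0.0096). clec-197 had 24.8, 26.6 and 20.3 FPKM at 15°C and 6.18, 8.12 and 2.06 FPKM at 25°C, for a log2 fold change of -2.20 (adjusted p = 0.0071). In clec-92, 25°C replicate 2 stood above the other libraries at 25°C, and in clec-207 and clec-197 replicate 3 stood below them. clec-95 had 6.88, 11.5 and 10.1 FPKM at 15°C and 1.19, 2.80 and 1.03 FPKM at 25°C, a log2 fold change of -2.26. clec-133 had 4.50, 2.39 and 3.16 FPKM at 15°C and 0.465, 0.475 and 0 FPKM at 25°C, a log2 fold change of -2.27 that was -3.39 at a pseudocount of 0.1, where it was not called. The other 16 had log2 fold changes from -2.17 (clec-245) to -1.05 (clec-147). Between them were clec-124 (-2.11), clec-94 (-2.11), clec-232 (-1.98), clec-3 (-1.89), clec-139 (-1.87), clec-138 (-1.78), clec-99 (-1.62), clec-103 (-1.59), clec-208 (-1.58), clec-137 (-1.53), clec-261 (-1.52), clec-104 (-1.35), clec-143 (-1.29) and clec-7 (-1.13). Leaving out any single library kept 12 of the 27 called, namely clec-3, clec-87, clec-91, clec-96, clec-97, clec-124, clec-138, clec-139, clec-146, clec-219, clec-232 and clec-245.

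Near the thresholds, 9 members had a log2 fold change below -1 and 3 above 1 without passing the adjusted p. Among them were clec-136 (-1.55, adjusted p = 0.012) and clec-28 (1.03, adjusted p = 0.011). Another 6 passed the adjusted p with a smaller change, among them clec-10 (-0.996, adjusted p = 0.00089) and clec-166 (0.96, adjusted p = 0.0061). clec-196 had a log2 fold change of 1.49 that came from 1 library, with 18.1 FPKM in 25°C replicate 2 and at most 0.692 FPKM in the other libraries.

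The lower and higher members differed in a feature that was not used to choose them, the length of their exons in the Ensembl annotation. The 27 lower members had a median exonic length of 760 bases, with quartiles of 711 and 843 bases. The 12 higher members had a median of 1178 bases and the 78 tested members that were not called 1189 bases. Split at 1000 bases, a value chosen after the data were seen, 23 of 56 shorter members were called lower and 3 higher. Of 61 longer members, 4 were called lower and 9 higher. The shares called higher were 5.36% of the shorter members and 14.8% of the longer ones, against 7.77% and 6.30% of all tested genes of those lengths. The shorter members had a median log2 fold change of -1.30 and the longer ones of 0.049. Over all tested genes with an annotated length, 5.78% of those under 1000 bases and 5.74% of the longer ones were called lower, so the shares of short and long genes were nearly equal there. The lower members of 1000 bases or more were clec-3, clec-7, clec-143 and clec-147, and the higher ones under 1000 bases were clec-86, clec-173 and clec-230. With the values corrected for exonic length, 30 members were lower and 12 higher, and these included all 39 called before. The correction removed only the length trend of all tested genes, which was slight. Their median log2 fold change was 0.011 under 1000 bases and -0.049 for the longer ones. It could therefore shift the members little, and the kept calls say little about length within the family. The number of short members called lower was 11, 11 and 12 when 15°C replicate 1, 2 or 3 was left out. It was 13, 25 and 15 when the library left out was 25°C replicate 1, 2 or 3. The short members were also less abundant, with a median of 5.23 FPKM against 14.4 FPKM for the longer ones, and the part of this in the pattern was not tested.

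**Figure D3:**
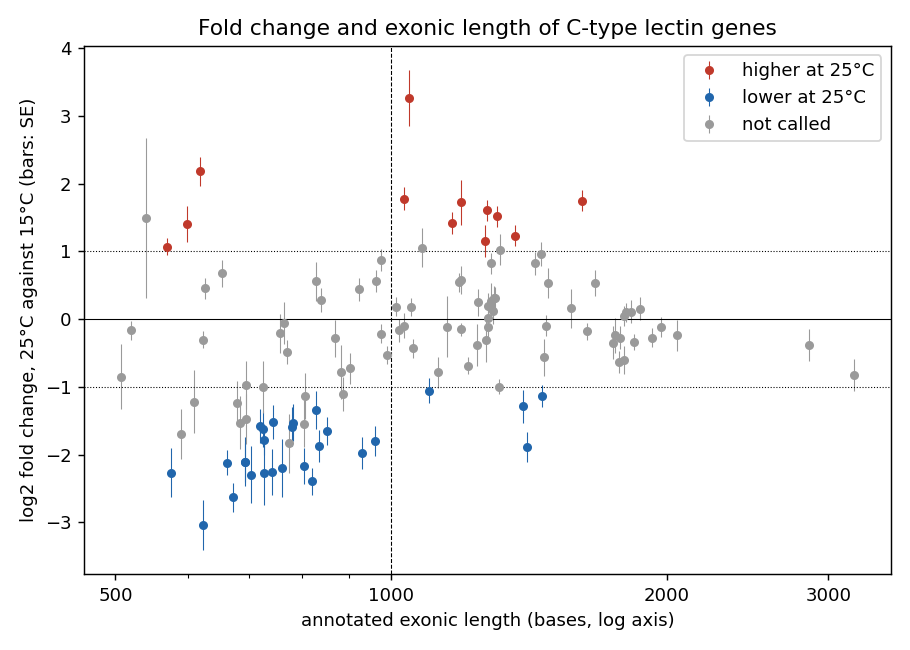
Log2 fold change of each tested C-type lectin gene against its annotated exonic length in bases, on a log axis. Error bars are standard errors, dotted lines mark 2-fold changes and the dashed line marks 1000 bases. Of the 27 blue points (called lower), 23 lie left of the dashed line, as do 3 of the 12 red points (called higher).

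Many C-type lectin genes lie in tandem. Members separated by at most 20 kb were joined into runs, which gave 19 runs with at least 2 tested members and 58 tested members in all. Of the 58, 13 were called lower and 6 higher, near the 23.1% and 10.3% of all tested members. In 10 of these runs a member was called, and in no run were members called in both directions. Only 5 of the 10 had at least 2 called members, so in the others the directions could not differ. Neighbours are often related copies, between which the counting could split reads, so their calls may not be independent. On chromosome I, all 5 tested members of a run of 7 between 11142110 and 11158833 fell, clec-94 (-2.11), clec-95 (-2.26), clec-96 (-3.04), clec-97 (-2.12) and clec-99 (-1.62), given as log2 fold changes. The run holds no other protein-coding gene. On chromosome II, clec-136 to clec-139 lie side by side from 4615574 to 4621750 with log2 fold changes of -1.55, -1.53, -1.78 and -1.87, the first not called. On chromosome V, clec-207 (-2.27) and clec-208 (-1.58) lie within 3.09 kb, and both fell. Other runs were split. In the run of 5 on chromosome II from 12893062 to 12906644, clec-65 (1.42) and clec-66 (1.52) rose, while their neighbours clec-62 (0.12), clec-63 (0.31) and clec-64 (0.25) were not called. In a run on chromosome V, clec-54 rose (1.61) next to clec-57 (0.82), clec-227 (0.54) and clec-56 (0.32), which were above 0 but not called. clec-219 fell (-2.40), while its neighbour clec-218 was not called (-0.11).

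**Figure D4:**
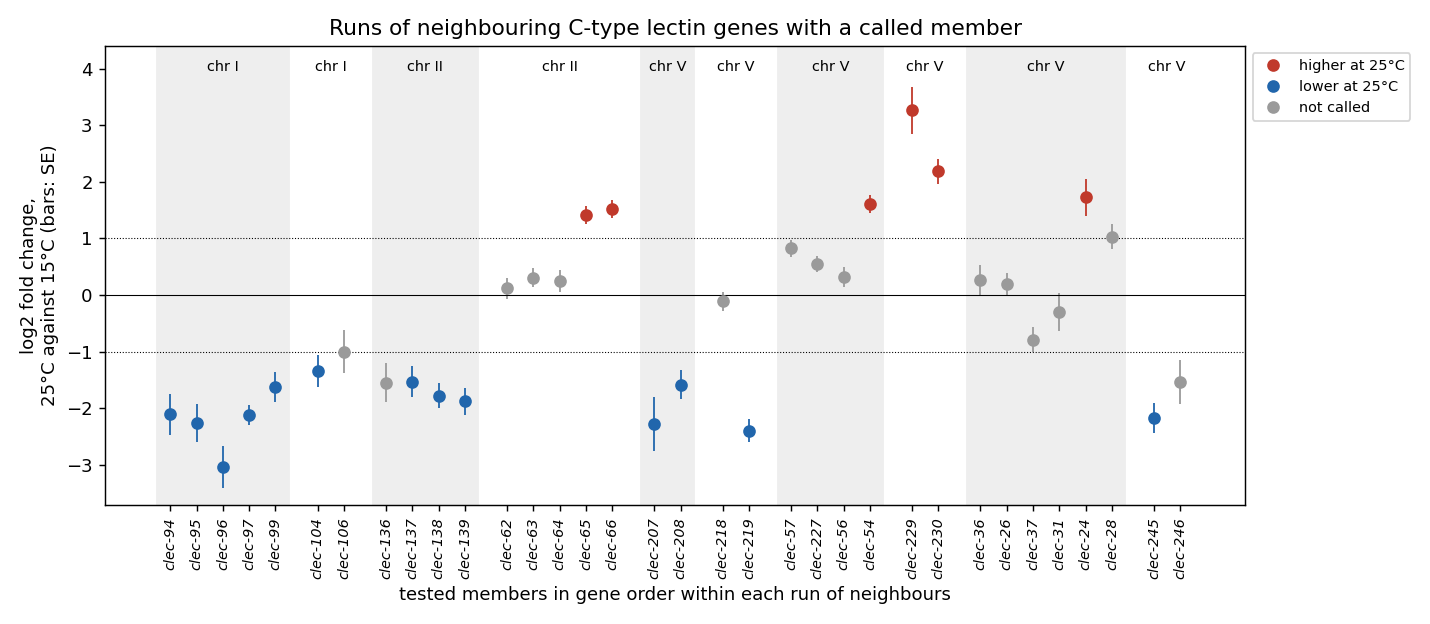
Log2 fold change, with standard error, of the tested members in the 10 runs of neighbouring C-type lectin genes that hold a called member, in gene order, with the chromosome above each run. Red is called higher, blue called lower and grey not called, and dotted lines mark 2-fold changes. The 5 tested members of the first run on chromosome I are all blue. No run holds both colors, which only the 5 runs with at least 2 called members could.

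By chromosome, the highest share called lower was on chromosome I, where 10 of 14 tested members were called lower, with a median log2 fold change of -1.64. Of these 10, 5 lie in the run of neighbours that holds clec-94 to clec-99, so their calls may not be independent. Of all tested genes on that chromosome, 6.01% were called lower. Removing 15°C replicate 1 left 5 called lower, removing 15°C replicate 2 or 3 or 25°C replicate 1 or 3 left 4, and removing 25°C replicate 2 left 10. On chromosome II, 9 of 26 tested members were lower and 4 higher, where 7.47% of all tested genes there were lower and 7.07% higher. On chromosome V, 7 of 40 were lower and 4 higher, where 5.81% of all tested genes there were lower and 10.6% higher, so the share of members higher was near that of all genes. Chromosome IV held 27 tested members but only 1 called lower, clec-197, and 1 higher, clec-173, where 5.21% of all tested genes there were lower and 5.995% higher. Both tested members on chromosome X, clec-265 and clec-86, rose, where 7.08% of all tested genes there did. Of the 39 called members, 10 overlap another protein-coding gene on the opposite strand, among them clec-87, clec-91, clec-97, clec-86 and the genes clec-137 to clec-139, which overlap pqn-35. The library kit keeps the strand, but whether counting used it is not given in the sources used here, so reads of these genes and of their partners may not be separated.

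Among C-type lectin genes linked to defense, 1 of 5 tested was called higher and 0 lower, against 6.96% and 5.59% of all tested genes. The list holds 11 genes, from background knowledge, that respond to or act against bacteria such as Staphylococcus aureus, Bacillus thuringiensis, Serratia marcescens and Microbacterium nematophilum or depend on the p38 kinase PMK-1. Of these, 9 are in the table and 5 were tested. The only one called was clec-86, which responds to Microbacterium nematophilum. It had 39.5, 40.0 and 24.5 FPKM at 15°C and 128, 78.7 and 73.2 FPKM at 25°C, for a log2 fold change of 1.40 (SE 0.27, adjusted p = 0.0072). The libraries were apart, but the call was lost when any of the 6 was left out, with adjusted p between 0.013 and 0.018 by limma. clec-85, which depends on PMK-1, had 99.1, 152 and 105 FPKM at 15°C and 207, 205 and 208 FPKM at 25°C, for a log2 fold change of 0.83 (adjusted p = 0.0087), below the 2-fold threshold, and it overlaps genes on both strands. clec-52, a marker of the response to Staphylococcus aureus, had 21.0, 29.8 and 23.1 FPKM at 15°C and 48.7, 39.7 and 46.9 FPKM at 25°C, for a log2 fold change of 0.87 (adjusted p = 0.0067). Both were called with rescaling to TPM, with equal sums and without 15°C replicate 2, with log2 fold changes above 1 and up to 1.05. clec-49 (-0.43, adjusted p = 0.044) and clec-67 (-0.24, adjusted p = 0.43) were not called. clec-39, clec-42, clec-60 and clec-71 had means below 1 FPKM. clec-60, a frequently used reporter of Gram-positive infection, had 0.855, 0.865 and 0.575 FPKM at 15°C and 0.271, 0.0683 and 0.362 FPKM at 25°C.

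Genes that act upstream of intestinal defense were taken from a list of 18, of which 17 were tested. Of these, 4 were called higher, against the 6.96% of all tested genes. They were tir-1, an adaptor that starts the PMK-1 cascade (log2 fold change 1.39), vhp-1, a phosphatase that acts on MAP kinases (1.25), elt-7, an intestinal GATA factor (1.11), and zip-2, a bZIP factor of the response to Pseudomonas (1.15). Without 25°C replicate 3 the number was 2, and treat called 0. pmk-1 itself had a log2 fold change of 0.51 (adjusted p = 0.011), and the intestinal GATA factor elt-2 of -0.053 (adjusted p = 0.81). daf-16, the FOXO factor, had -0.76 (adjusted p = 0.0077) and was not called.

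Markers of tissues and stage were compared beside these results. Of 5 intestinal genes tested, none was called and the median log2 fold change was 0.20. The range was from -0.29 (act-5) to 0.90 (vha-6, adjusted p = 0.0034). Their summed level was 1738 to 2284 FPKM at 15°C and 2009 to 2062 FPKM at 25°C. Of 7 genes of sperm, the median was -0.049, with sums of 1912 to 2846 and 2068 to 2176 FPKM. Of the genes of the oocyte and of yolk, all 7 had a log2 fold change below 0, with a median of -0.88, and 3 were called lower, rme-2, the yolk receptor (-2.12), cbd-1, an eggshell component (-2.19), and the vitellogenin vit-5 (-1.62). Their sums were 2843 to 4706 FPKM at 15°C and 1670 to 2038 FPKM at 25°C. Of 3 germline genes, pgl-1 and gld-1 were called lower, and their sum with glh-1 went from 680 to 1017 FPKM at 15°C to 293 to 499 FPKM at 25°C. Of the tested genes of body wall muscle (2), pharynx (3), neurons (4) and adult cuticle (2), none was called at an adjusted p under 0.01 and 2-fold. The 2 cuticle genes differed. col-19 had a log2 fold change of -0.70 (adjusted p = 0.033), with every library at 25°C below those at 15°C, and col-7 had 0.12. Of 3 molting genes tested, the median log2 fold change was 0.19. mlt-7 was called higher (1.96), while nas-37 (-0.92, adjusted p = 0.013) and qua-1 (0.19) were not called. No tested marker of these lists was at 0 in a library.

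The lower C-type lectins were compared among the 3 libraries at 25°C. In 20 of the 27, or 74.1%, replicate 2 had the highest value, which is near the 71.6% of all genes called lower and so not particular to the lectins. Replicate 3 was the lowest in 15 of the 27 and replicate 1 in 10. Among all 726 genes called lower the order was the other way, with replicate 1 the lowest in 536 and replicate 3 in 127. Of the 7 oocyte and yolk genes, replicate 2 was the highest in 6 and replicate 1 in 1, puf-5, while replicate 1 was the lowest in 4 and replicate 3 in 3. In the 3 germline genes replicate 2 was the highest and replicate 1 the lowest. In the 12 higher members, replicate 2 was the highest in 2 and replicate 1 in 9. Replicate 1 was the highest in 36.0% of all tested genes, and the share over all genes called higher was not computed. The part of the oocyte and germline genes in the change of the lectins was not tested.

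**Figure D5:**
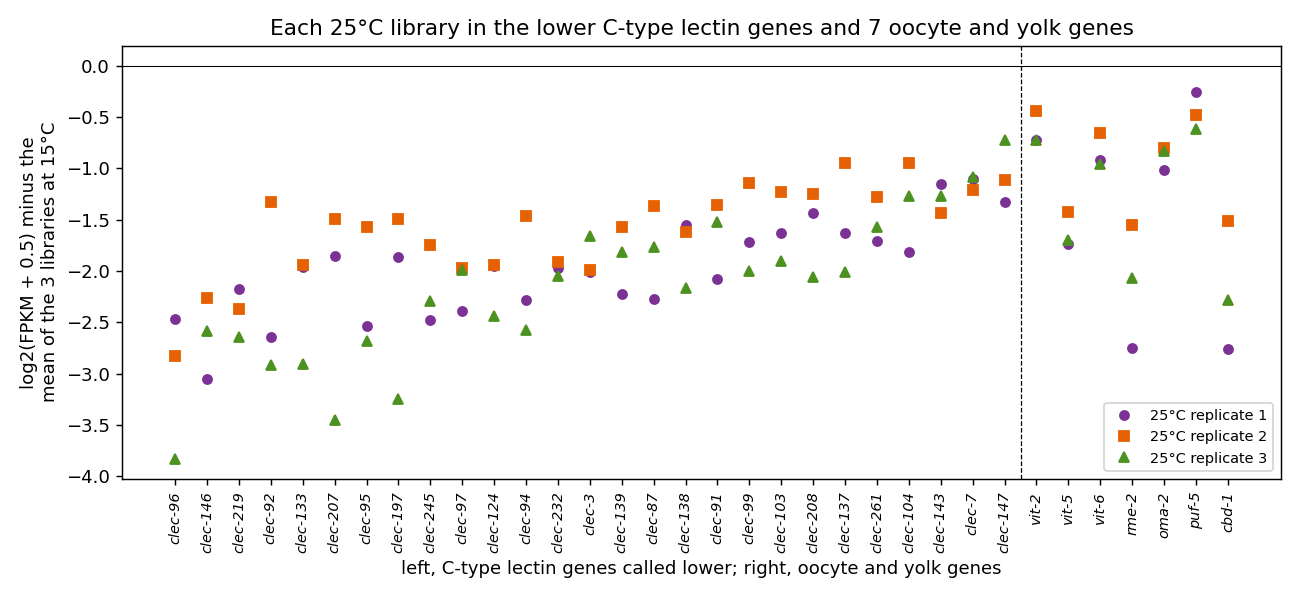
Difference of each 25°C library from the mean of the 15°C libraries, on the log2(FPKM + 0.5) scale, in the 27 C-type lectin genes called lower and, right of the dashed line, in the 7 oocyte and yolk genes. Circles, squares and triangles are replicates 1, 2 and 3. All points lie below 0, and the square is the highest point in 20 of the 27 lectins and in 6 of the 7 oocyte and yolk genes.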

How the data were processed

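TopHat2 2.0.6 alignment to WBcel235 and the Cufflinks tools gave the FPKM values, 1 per gene and library, that the authors deposited. Filters they applied first were not stated. Values were tested without further scaling on log2(FPKM + 0.5) by limma 3.58.1 (R 4.3.3; prior variance following mean level), for genes whose mean reached 1 FPKM, using all 6 libraries and Benjamini-Hochberg adjustment over all tested genes, two-sided. The fit was tested on simulated data, with means of at least 5 FPKM and changes larger than the fold threshold. Genes below that level and smaller changes were not simulated. Alternatives were other pseudocounts, filters, scalings and thresholds, no trend, treat, a replicate block, each library left out and, added after the data were seen, a correction for exonic length. Python 3.11.15 was used for the summaries.

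Every called member is named. Values per library are given for the 8 largest changes each way, the 6 highest means and the called defense gene. Other members with library values (clec-91, clec-97, clec-52, clec-85, clec-60, clec-196) were chosen after their values were seen. Members and lists were chosen with earlier results of these data known. By symbol, 202 members matched 1 gene of Ensembl release 115. The exceptions were clec-44 and clec-209, the latter annotated at 2 loci. Of the 12996 tested genes, 11852 matched. Protein and promoter sequences were not used here, so the planned motif searches were not run. Of the marker and pathway lists, opt-2, unc-54, ssp-9, mlt-10 and tpa-1 were not analysed here.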

Additional observations from a re-analysis of the deposited data

How the results depend on the processing

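Depth is unknown, so the precision rests on 3 libraries a temperature. No called member reversed under any alternative. Leaving out 1 library gave 9 to 13 members higher and 13 to 28 lower, medians of -0.33 to -0.12, 2 to 4 pathway genes higher and 0 to 2 defense lectins higher. The test against a 2-fold change (treat) called 0 members higher and 2 lower, 0 pathway genes and 0 defense lectins. A mean of at least 5 FPKM left 17 members lower with a median of -0.16. Rescaling to TPM and equal sums moved the median to -0.088 and -0.10, brought 3 defense lectins past the threshold, and turned clec-150 (0.036 in both) and clec-47 (0.023 in both) above 0. Without the intensity trend 0 defense lectins were called. With the replicate number as a block, 10 members were higher and 18 lower. Same-numbered libraries did not deviate together over the tested genes (correlations of -0.035, -0.10 and -0.050). Differently numbered ones ranged from -0.12 to 0.16. Such correlations cannot show whether same-numbered libraries shared a batch that affected fewer genes. The cause of these shifts was not tested. The exonic length correction was chosen after the data were seen.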

Other observations

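Among the 87 members below the filter, which entered no comparison, 16 had a listed value of 0 in every 25°C library, 6 had one in every 15°C library, and none was at 0 in all 6. At 25°C, 18 of the 87 lay below every library at 15°C, 7 lay above, and 62 overlapped. The shares over all genes below the filter were not computed, so these counts cannot be read as a trait of the members. An exact 0 can be a failed estimate. clec-76, the most abundant of them, had 1.07, 2.01 and 1.45 FPKM at 15°C and 0.321, 0.386 and 0.627 FPKM at 25°C. clec-125 had 1.88, 1.15 and 1.45 FPKM at 15°C and 0.0907, 0.403 and 0.191 FPKM at 25°C. clec-157 had 0.787, 2.02 and 1.46 FPKM at 15°C and 0.302, 0.151 and 0 FPKM at 25°C. clec-194 had 0.309, 0.516 and 0.591 FPKM at 15°C and 1.74, 1.10 and 1.53 FPKM at 25°C. clec-25 had 0.406, 0.327 and 0.466 FPKM at 15°C and 1.64, 1.41 and 1.16 FPKM at 25°C. These 5, of which 3 lay below and 2 above at 25°C, were named after their values were seen. clec-209 was listed at 0 in 5 libraries and at 3.72 FPKM in 25°C replicate 2.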
